A study of Mus musculus with 19 samples.

Results

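The genes described here are the mouse genes whose symbol is Zfp followed by a number, most of which encode zinc finger proteins. The deposited normalized table held 244 probes for 195 such genes. Members were the 199 probes, for 162 genes, that 3 or more arrays detected at a p-value below 0.01, of 13945 probes that passed the same filter. Zfp36, which encodes tristetraprolin, was left out by the rule, and the related Zfp36l1 was kept. RNA of mouse neutrophil preparations was measured on 19 Illumina BeadChip arrays of 1 colour, 1 preparation an array. SM16 (n = 5) stands for tumour-associated neutrophils of the arm given SM16, a drug that blocks Alk5, the type I receptor kinase of TGF-beta. TAN (n = 3, numbered 1, 2 and 4) stands for tumour-associated neutrophils without a stated treatment, G-MDSC (n = 4) for neutrophils from the spleen of tumour-bearing mice, and NN (n = 7) for naive neutrophils from bone marrow. The mice are labelled as clonal, and their strain, age, tumour line, dose of SM16 and treatment time are not given in the sources used here. Whether the arrays of a group stand for different mice is not stated, and p-values then describe only the spread among these samples, which may be technical.

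Zinc fingers are small protein folds held together by a zinc ion. Most Zfp proteins carry rows of fingers of the C2H2 type, which bind DNA. Many of these also carry a KRAB box, which recruits the corepressor Trim28 (KAP1) and, through it, Setdb1 and heterochromatin proteins. KRAB zinc finger genes lie in clusters on few chromosomes, and many of them silence retroelements. A few members have other fingers and bind RNA: Zfp36l1 has CCCH fingers that bind AU-rich elements and bring the CCR4-NOT deadenylase to the mRNA. Neutrophils form in marrow, lose the capacity to divide as they mature, and live for a short time in blood and tissue.

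The arrays detected 10880 to 12492 probes in SM16, 9599 to 10773 in TAN, 11283 to 11435 in G-MDSC and 10660 to 11807 in NN, of 25697 on the array. The TAN arrays did not form 1 group. Over the 199 Zfp probes, which are no independent points, TAN replicates 1 and 2 had a Pearson correlation of 0.98 with each other and of 0.85 and 0.87 with TAN replicate 4. TAN replicate 4 correlated at 0.95 to 0.97 with the 5 SM16 arrays. Counts of called Zfp probes in each comparison with TAN are therefore given for the 3 arrays together and again for TAN replicate 4 by itself. The fit with TAN replicate 4 alone takes the spread of that single array from the remaining groups. Changes of many single genes, but not all, are given both ways. Counts and medians of gene lists, counts without overlap and counts at 2-fold rest on the 3 TAN arrays, as does any change printed without a value for TAN replicate 4. The arrays also form 2 sets by their lowest signal, which was 10.3 to 17.7 on the 4 G-MDSC arrays and NN replicates 6 and 7, and 47.5 to 65.5 elsewhere. The labels do not name these sets. Calls between G-MDSC and NN are given again within the set that holds both.

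Markers of other cells moved with the groups, and their part in the results below was not tested. In bulk samples, fewer cells of a type and less RNA per cell cannot be told apart. The summed level of 11 neutrophil markers was 132.0 to 139.3 in SM16, 124.5 to 135.4 in TAN, 151.8 to 154.9 in G-MDSC and 158.6 to 160.3 in NN. All 11 were detected on at least 1 array of each group. Ngp was detected on 1 of 3 TAN arrays, at 7.15 ± 3.58 in TAN (SD), and on every array of the other groups. All 10 measured markers of granulocyte precursors and cycling cells fell in SM16, in TAN and in G-MDSC against NN, with sums of 64.3 to 68.5 in SM16, 62.1 to 70.5 in TAN, 63.9 to 74.2 in G-MDSC and 102.5 to 108.0 in NN. Mpo, Elane, Ms4a3 and Ctsg were detected on no SM16 array, while Prtn3, Cdk1, Birc5 and Rrm2 were detected on all 5. All 8 erythroid markers fell in the same 3 comparisons, with sums of 46.9 to 48.8 in SM16, 49.0 to 49.9 in TAN, 53.0 to 58.0 in G-MDSC and 91.4 to 94.8 in NN, and Gata1 was detected on no SM16, TAN or G-MDSC array. Rhag was detected on none of them by 2 of its 3 probes and on 1 SM16 array by the other. Hba-a1 was detected on every SM16, TAN and G-MDSC array. Alas2 and Slc4a1 were detected on all 4 G-MDSC arrays and on no SM16 or TAN array. Of 8 macrophage and monocyte markers, 8 rose in SM16 and 6 in TAN against NN, with sums of 102.9 to 109.1 in SM16, 85.0 to 104.8 in TAN, 72.8 to 78.6 in G-MDSC and 72.2 to 80.1 in NN. B cell markers (7 measured) summed to 40.7 to 42.8 in SM16, 40.9 to 43.6 in TAN, 44.7 to 47.7 on 3 G-MDSC arrays and 56.1 to 64.2 in NN, while G-MDSC replicate 1 reached 72.6. G-MDSC replicate 1 also had the highest sum of 9 T and NK cell markers, 85.5, against 54.2 to 57.9 on the other G-MDSC arrays and 54.0 to 65.7 over the other groups. Hair follicle and keratinocyte markers (7 measured) summed to 52.2 to 70.0 in SM16, 40.9 to 44.4 in TAN, 34.3 to 36.8 in G-MDSC and 35.5 to 37.9 in NN. Endothelial markers (9 measured) summed to 62.2 to 70.6 in SM16, 50.3 to 54.6 in TAN, 48.4 to 50.5 in G-MDSC and 58.9 to 69.2 in NN. Fibroblast markers (7 measured) summed to 42.8 to 51.1 in SM16, 44.9 to 49.4 in TAN, 32.4 to 39.99 in G-MDSC and 37.2 to 41.7 in NN. The TAN arrays also differed in markers. On TAN replicates 1, 2 and 4 the macrophage and monocyte sums were 85.0, 88.3 and 104.8. The neutrophil sums there were 124.8, 124.5 and 135.4. On both lists only TAN replicate 4 lay within the range of SM16. Its hair follicle, endothelial, precursor, erythroid, and T and NK cell sums lay outside the SM16 ranges.

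Levels below are log2 intensities after background correction and quantile normalization. Most Zfp transcripts were dim. The mean level of a member over all arrays had a median of 6.32, with quartiles of 5.51 and 7.81 and a range of 4.79 to 13.3, while the median over all probes was 7.31. Of the 199 probes, 78 were detected on every array and 27 on 3 to 5 arrays. The filter left out 45 Zfp probes, 15 of them detected on no array. The 11 probes detected on exactly 3 arrays had mean levels of 4.79 to 5.2, and the 14 left out with exactly 2 had mean levels of 4.81 to 5.26. Detection was restricted to NN for Zfp11 (5 arrays), Zfp521 (5 arrays) and Zfp382 (3 arrays), and to SM16 for 1 probe each of Zfp27 and Zfp316 (3 arrays each), whose other probes were also detected elsewhere. Zfp521 encodes a cofactor of haematopoietic progenitor cells. Arrays detected 139 to 176 Zfp probes in SM16, 126 to 147 in TAN, 155 to 164 in G-MDSC and 138 to 167 in NN. The median level of the Zfp probes was 5.998 to 6.23 on the SM16 arrays, 6.50 to 6.72 in TAN, 6.57 to 6.71 in G-MDSC and 6.42 to 6.68 in NN. No SM16 array reached the lowest array of any other group.

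Zfp probes fell in SM16 against TAN more often than they rose, but most of the calls were lost with TAN replicate 4 alone. Probes were called at a limma p-value, adjusted by Benjamini-Hochberg over all 13945 probes, under 0.05. Of the 199 Zfp probes 95 were called in SM16 minus TAN, 16 higher and 79 lower. This was 8.04% higher and 39.7% lower, where all probes gave 20.1% higher and 25.3% lower (45.4% called in all). The median change was -0.36 for Zfp probes and -0.13 for all probes (log2). Among the 99 Zfp probes with mean levels between the quartiles, 39.4% were lower, and among all 5258 probes in the same range of levels 27.5% were. With each array scaled to the same median instead of quantile normalization, 18 Zfp probes were higher and 46 lower, where all probes gave 18.9% and 17.3% (36.2% in all). The medians under this scaling lay closer together, at -0.19 for Zfp probes and -0.11 for all probes. With TAN replicate 4 alone, 7 Zfp probes were called, 1 higher and 6 lower, where 1.53% and 1.97% of all probes were (3.5% in all), and 138 of the 199 Zfp changes were below 0 with a median of -0.21 against -0.01 for all probes. Without TAN replicate 4 there were 125 calls, 31 higher and 94 lower, where all probes gave 25% and 36.9% (61.9% in all). Fitted without G-MDSC and NN, the comparison gave 49 calls, 6 higher and 43 lower, where all probes gave 9.28% and 12.2% (21.5% in all).

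In SM16 minus NN, 117 Zfp probes were called, 41 higher and 76 lower. These were 20.6% and 38.2% of the Zfp probes, against 29.9% and 32.5% of all probes (62.4% called in all). The medians were -0.16 for Zfp probes and -0.04 for all probes. TAN arrays enter these values through the common normalization, the filter and the shared spread. In TAN minus NN 138 Zfp probes were called, 73 higher and 65 lower (36.7% and 32.7%), close to 34.9% and 33.1% of all probes (68% called in all). With TAN replicate 4 alone 85 were called, 37 higher and 48 lower, where 23.7% and 24% of all probes were (47.7% in all). Of the 138 calls, 8 had the opposite sign with TAN replicate 4 alone, and the matching share over all called probes is not given here.

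In G-MDSC minus NN, 83 Zfp probes were called, 52 higher and 31 lower (26.1% and 15.6%), where all probes gave 21.8% and 21.7% (43.5% called in all). Under median scaling the split was 68 higher and 20 lower, where all probes gave 30.2% and 14.8% (44.9% in all), and the median of all probes moved to 0.22, against 0.31 for Zfp probes. Within the set of arrays that holds both groups (NN replicates 6 and 7), 47 were called, 26 higher and 21 lower, where all probes gave 16% and 16.7% (32.7% in all). Without G-MDSC replicate 1, 80 were called, 50 higher and 30 lower, where all probes gave 22.4% and 21.6% (44% in all). In TAN minus G-MDSC 118 were called, 55 higher and 63 lower (27.6% and 31.7%), where all probes gave 32.9% and 30.1% (63% called in all). Under median scaling this split was 33 higher and 80 lower, where all probes gave 20.8% and 38.2% (59% in all), with medians of -0.38 for Zfp probes and -0.27 for all probes. No set of arrays holds both groups, and with the set as a block 60 were called, 29 higher and 31 lower, where 20.4% and 18.3% of all probes were (38.8% in all). For TAN replicate 4 against G-MDSC 80 were called, 26 higher and 54 lower, where 21% and 20.7% of all probes were (41.7% in all).

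The arrays of both groups did not overlap for 9 Zfp probes higher and 50 lower in SM16 than in TAN, where 7.59% and 14.9% of all probes did so, and 12 and 30 were called at a change of 2-fold or more, where 13.9% and 8.48% of all probes were. In TAN minus NN 51 Zfp probes were higher and 42 lower without overlap (25.5% and 25.4% of all probes), and 38 and 31 passed 2-fold (21.4% and 23%). SM16 minus NN gave 30 and 63 without overlap (25.1% and 26.9%), and 16 and 45 at 2-fold (17.8% and 18.9%). G-MDSC minus NN gave 46 and 22 without overlap (18% and 18.5%), and 21 and 7 at 2-fold, where 10.3% of all probes passed in each direction. TAN minus G-MDSC gave 47 and 53 without overlap (26.2% and 22.6%), and 30 and 36 at 2-fold (20.8% and 20.6%).

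**Figure D1:**
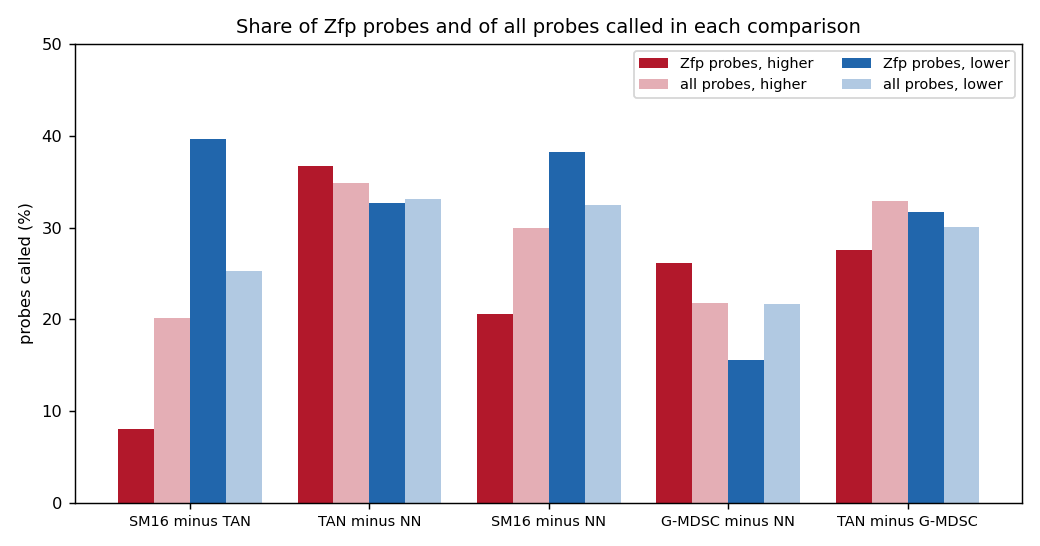
Percent of the 199 Zfp probes (solid bars) and of all 13945 probes (pale bars) called higher (red) or lower (blue) in each of 5 comparisons, at an adjusted p under 0.05. In SM16 minus TAN 39.7% of Zfp probes were lower, against 25.3% of all probes, and in TAN minus NN the bars of both sets are of similar height.

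RNA-binding members held the brightest Zfp probe, that of Zfp36l1, and rises over NN in every group. Of 11 listed genes of RNA binding and mRNA decay 7 were measured, each by its brightest probe. In SM16 minus NN 4 rose and 2 fell, in TAN minus NN 3 rose and 3 fell, in G-MDSC minus NN 3 rose and none fell, and in SM16 minus TAN 3 rose and 3 fell. Their median changes in these comparisons were 0.86, 0.55, 0.51 and -0.07, against -0.04, 0.05, 0.00 and -0.13 for all probes. In TAN minus G-MDSC 1 rose and 3 fell, with a median of -0.22, against 0.04 for all probes. Of all probes, 29.9% were higher and 32.5% lower in SM16 minus NN, and 34.9% and 33.1% in TAN minus NN. The shares were 21.8% and 21.7% in G-MDSC minus NN, 20.1% and 25.3% in SM16 minus TAN, and 32.9% and 30.1% in TAN minus G-MDSC.

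Zfp36l1, which promotes decay of mRNAs with AU-rich elements, was far above NN in every other group. Its probe ILMN_1247853 read 13.34, 13.17, 13.24, 13.22 and 13.08 on the SM16 arrays, 14.03, 14.11 and 13.77 on the TAN arrays, 13.17, 12.41, 12.44 and 12.43 on the G-MDSC arrays, and 9.47 to 10.32 with a median of 9.81 on the NN arrays. No array of SM16, TAN or G-MDSC overlapped with NN. The rise over NN was 18.0-fold in TAN (log2 4.17 ± 0.17 SE, limma adjusted p = 1.01e-13), 10.6-fold in SM16 (adjusted p = 8.85e-14) and 7.04-fold in G-MDSC (adjusted p = 1.52e-11). With TAN replicate 4 alone the change over NN was 3.98 (adjusted p = 9.07e-10), and within the shared set of arrays the G-MDSC change was 2.90 (adjusted p = 2.09e-04). A brighter probe, ILMN_2780424, gave 16.7-fold in TAN, 9.12-fold in SM16 and 7.01-fold in G-MDSC over NN. Both probes were lower in SM16 than in TAN, at -0.76 and -0.87, with no overlap between arrays, but with TAN replicate 4 alone the changes were -0.57 and -0.52 and missed the threshold (adjusted p = 0.282 and 0.259). The third probe, ILMN_2427108, was dim: it was detected on 4 SM16 arrays, 1 TAN array, 4 G-MDSC arrays and 1 NN array, and averaged 6.49 in SM16, 5.77 in TAN, 7.81 in G-MDSC and 4.94 in NN. It was at least 5.04-fold higher in G-MDSC than in NN, where each NN array is raised to its lowest detected value, and it fell in TAN against G-MDSC while the other 2 probes rose there by 1.25 and 1.36. Zfp36l2, its relative, had no probe past the filter.

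Zfp106, an RNA-binding protein needed for the maintenance of motor neurons, was also above NN in every group. Probe ILMN_1259839 read 9.96, 9.36, 10.32, 9.62 and 9.46 in SM16, 9.11, 9.23 and 9.35 in TAN, 8.57, 9.19, 9.35 and 8.86 in G-MDSC, and 6.90 to 7.31 with a median of 7.20 in NN. No array overlapped with NN. The rise over NN was 5.97-fold in SM16 (adjusted p = 5.73e-11) and 4.19-fold in TAN (adjusted p = 2.53e-08), and 2.19 (log2) with TAN replicate 4 alone. A second probe rose 3.77-fold in G-MDSC (adjusted p = 6.36e-09), with a log2 change of 1.93 within the shared set of arrays (adjusted p = 6.57e-04). SM16 stood above TAN by 0.63 on that probe (adjusted p = 0.0105), and by 0.49 with TAN replicate 4 alone (adjusted p = 0.381).

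Other members of this group moved less or rested on TAN replicates 1 and 2. Zfp638, which takes part in splicing and in silencing of unintegrated retroviral DNA, fell in SM16 against NN by 1.31 on the log2 scale, to 8.16 ± 0.22 in SM16 against 9.47 ± 0.13 in NN (SD, n = 5 and 7, limma adjusted p = 5.3e-09). Zfp326, a subunit of a complex that couples transcription to splicing, rose in G-MDSC to 7.93 ± 0.23, against 6.79 ± 0.42 in NN, but the change within the shared set of arrays was 0.66 (adjusted p = 0.0505). Zfp385a, a p53 cofactor that also binds RNA, read 8.53, 8.53, 7.58, 7.95 and 8.22 in SM16, and 4.88, 4.89 and 7.14 in TAN. It was called at least 3.44-fold higher in SM16 (adjusted p = 1.86e-04), but with TAN replicate 4 alone the change was 1.03 and not called (adjusted p = 0.180). Zfp598, a ubiquitin ligase that senses collided ribosomes, read 6.77 to 7.29 in SM16, and 4.60, 4.59 and 7.55 in TAN, so that its TAN arrays lie on both sides of SM16. Its call in SM16 minus TAN (1.48) turned to -0.49 with TAN replicate 4 alone. In TAN minus NN the change of Zfp598 was -1.22 with the 3 TAN arrays and 0.75 with TAN replicate 4 alone. Zfp346, which binds double-stranded RNA, read 6.43 to 7.02 in SM16, and 8.44, 8.57 and 6.50 in TAN, and its change of -1.18 on probe ILMN_1253077 turned to 0.15. Its other probe was at -0.25 and not called.

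Zfp90, a KRAB repressor, showed the largest rise over NN in SM16 and one of the largest in TAN. Its levels were 9.98, 10.38, 9.85, 10.24 and 10.07 in SM16, 9.09, 9.16 and 8.72 in TAN, 7.47, 7.26, 7.30 and 7.12 in G-MDSC, and 6.0 to 6.35 with a median of 6.19 in NN. The 4 groups did not overlap. It was 15.0-fold higher in SM16 than in NN (adjusted p = 2.63e-15), 6.94-fold higher in TAN than in NN (adjusted p = 7.38e-12) and 3.27-fold higher in TAN than in G-MDSC (adjusted p = 1.31e-07). SM16 exceeded TAN 2.16-fold (log2 1.11 ± 0.16 SE, adjusted p = 7.89e-05), and by 1.38 with TAN replicate 4 alone (adjusted p = 0.00256). It was the only Zfp probe called higher in SM16 minus TAN with that array alone.

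Zfp263, a SCAN and KRAB zinc finger protein, was among the brightest members. It read 11.97 to 12.28 with a median of 12.09 in SM16, 12.76, 12.73 and 12.15 in TAN, 12.02, 12.26, 12.41 and 11.91 in G-MDSC, and 10.49 to 10.84 with a median of 10.71 in NN. It was 2.70-fold higher in SM16 (adjusted p = 2.18e-09), 3.66-fold in TAN (adjusted p = 7.38e-10) and 2.78-fold in G-MDSC (adjusted p = 1.15e-08) than in NN, with no overlap. The TAN change was 1.47 with replicate 4 alone, and the G-MDSC change was 1.46 within the shared set of arrays. Zfp623 was 2.64-fold higher in SM16 and 4.63-fold in TAN than in NN, and 1.36 (log2) higher with TAN replicate 4 alone (adjusted p = 2.42e-04). Zfp97 rose 3.91-fold in TAN over NN, Zfp362 rose 2.80-fold in SM16 over NN, and Zfp30 was at least 1.96-fold higher in SM16 than in NN, where 1 of 7 arrays detected it.

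The largest falls against NN formed a second group. Zfp101 was detected on all 4 G-MDSC and 7 NN arrays, on 1 SM16 array and on no TAN array. It read 4.78 to 5.37 in SM16, 4.74, 4.69 and 5.35 in TAN, 5.65 to 6.24 in G-MDSC and 6.91 to 7.40 in NN, so neither SM16 nor TAN overlapped with G-MDSC or NN. It was at least 3.30-fold lower in SM16 and at least 2.40-fold lower in TAN than in NN, and 2.33-fold lower in G-MDSC than in NN (adjusted p = 1.31e-09, 5.15e-09 and 7.38e-06). Zfp672 fell 4.53-fold in SM16 against NN, to 7.68 ± 0.23 in SM16, against 9.86 ± 0.10 in NN (SD, n = 5 and 7, limma adjusted p = 1.6e-11), and Zfp692, which overlaps it at one end, fell 4.29-fold (probe ILMN_3141195). Zfp597 fell 3.6-fold in SM16 against NN. Zfp760 and Zfp296 (probe ILMN_2470407) were detected on no SM16 array and were at least 2.72-fold and 2.68-fold lower in SM16 than in NN. Zfp87 (probe ILMN_2992836) fell 4.75-fold in SM16 against NN, to 7.78 ± 0.11 in SM16, against 10.03 ± 0.10 in NN. Zfp160 was detected on no TAN array and was at least 2.10-fold lower in TAN than in NN.

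**Figure D2:**
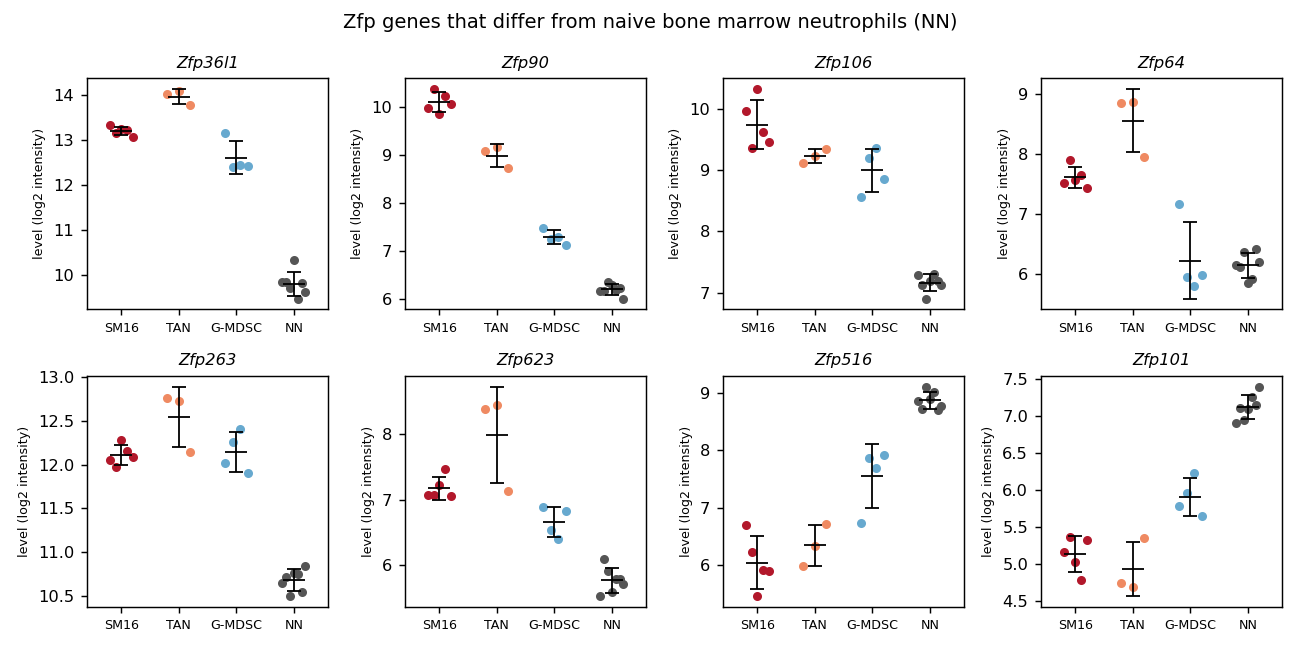
Level (log2 intensity) of 8 Zfp genes on every array, with SM16, TAN, G-MDSC and NN side by side. Points are arrays, and black bars the group mean ± SD. Zfp36l1, Zfp90, Zfp106 and Zfp263 lie above NN in every other group, Zfp64 lies above NN in SM16 and TAN, and Zfp516 and Zfp101 lie below NN.

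The promoters of 4 members that stand for both directions are printed here, since their genes were called between groups: Zfp36l1 and Zfp106 above NN in every group, and Zfp809 and, on 1 of its 2 probes, Zfp473 lower in SM16 than in TAN. Each runs 5′ to 3′ on the strand of its gene over 300 bases around the start, from RefSeq on GRCm38.p6, and capitals mark matches to 6 motifs searched on both strands, which are AP-1, GC box, CCAAT box, ETS, E-box and CRE. Zfp36l1 lies on the minus strand at chr12:80112964-80113263, Zfp106 on the minus strand at chr2:120563810-120564109, Zfp809 on the plus strand at chr9:22225453-22225752, and Zfp473 on the minus strand at chr7:44748568-44748867.
Zfp36l1: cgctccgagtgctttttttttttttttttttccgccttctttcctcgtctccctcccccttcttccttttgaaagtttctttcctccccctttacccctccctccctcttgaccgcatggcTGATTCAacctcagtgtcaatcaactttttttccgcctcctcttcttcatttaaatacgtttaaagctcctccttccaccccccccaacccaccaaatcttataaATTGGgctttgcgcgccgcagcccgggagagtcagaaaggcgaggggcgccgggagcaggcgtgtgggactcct
Zfp106: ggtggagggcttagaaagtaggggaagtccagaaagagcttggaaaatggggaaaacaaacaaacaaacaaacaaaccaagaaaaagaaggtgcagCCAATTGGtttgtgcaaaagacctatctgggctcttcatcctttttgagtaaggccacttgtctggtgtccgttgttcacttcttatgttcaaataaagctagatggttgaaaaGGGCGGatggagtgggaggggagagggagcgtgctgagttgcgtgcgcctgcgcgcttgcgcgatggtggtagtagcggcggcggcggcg
Zfp809: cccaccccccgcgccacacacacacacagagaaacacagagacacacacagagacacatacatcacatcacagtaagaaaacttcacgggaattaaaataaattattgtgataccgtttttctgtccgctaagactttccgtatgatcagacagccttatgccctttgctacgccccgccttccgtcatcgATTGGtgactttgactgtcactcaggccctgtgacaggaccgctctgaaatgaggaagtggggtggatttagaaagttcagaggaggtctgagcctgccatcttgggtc
Zfp473: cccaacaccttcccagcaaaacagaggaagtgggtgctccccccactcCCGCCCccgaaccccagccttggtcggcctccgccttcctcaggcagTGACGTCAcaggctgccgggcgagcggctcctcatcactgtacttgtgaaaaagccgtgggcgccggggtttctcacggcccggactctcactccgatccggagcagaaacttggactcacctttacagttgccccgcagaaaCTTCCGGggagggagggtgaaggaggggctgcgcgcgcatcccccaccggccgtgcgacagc
Zfp36l1 holds an AP-1 and a CCAAT match, Zfp106 a pair of overlapping CCAAT matches and a GC box, Zfp809 a CCAAT match, and Zfp473 a GC box, a CRE and an ETS match. Of the 162 genes 133 had a promoter in the table. The GC box, searched as GGGCGG, stood in 51.9% of them and in 35.9% of all 27025 promoters of the same length. The CCAAT box, searched by those letters, stood in 50.4% of member promoters and 37.9% of all promoters. The ETS motif CCGGAAG was found in 18% of member promoters and 9.12% of all promoters, and the AP-1 motif, searched as TGANTCA, in 5.26% and 7.93%. The CRE, searched as TGACGTCA, was in 3.76% of member promoters and 1.88% of all promoters, and the E-box, searched as CACGTG, in 9.02% and 7.24%. Their median GC content was 57%, against 52.7% over all promoters. Split by the call lower in SM16 than in TAN, with 52 promoters of such members and 81 of other members, the shares stood close for the GC box, at 51.9% in both, and for the CRE, at 3.85% and 3.7%. They were 55.8% and 46.9% for the CCAAT box, 15.4% and 19.8% for ETS, 17.3% and 3.7% for the E-box, and 9.62% and 2.47% for AP-1. These differences were not tested, and the E-box and AP-1 shares rest on 12 and 7 promoters in all. The matches are letters in a window and were not set against binding data.

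Of 14 listed regulators of signalling and immunity 7 were measured. Among them Zfp521 was detected on 5 NN arrays and nowhere else, so it passed the filter only through NN. In SM16 minus TAN 2 rose and 4 fell, in TAN minus NN 3 rose and 3 fell, in SM16 minus NN 1 rose and 3 fell, and in G-MDSC minus NN 1 rose and 1 fell. TAN minus G-MDSC had 2 rises and 2 falls. Their median changes were -0.44, -0.21, -0.42, 0.19 and 0.08 in that order, where all probes had -0.13, 0.05, -0.04, 0.00 and 0.04. All probes gave 20.1% higher and 25.3% lower, 34.9% and 33.1%, 29.9% and 32.5%, 21.8% and 21.7%, and 32.9% and 30.1% in that order.

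Zfp608, which represses Rag1 and Rag2 in thymocytes, fell in SM16 against both TAN and NN. It read 10.41, 10.32, 10.49, 10.62 and 10.08 in SM16, 11.60, 11.46 and 11.61 in TAN, 11.40 to 11.68 in G-MDSC and 11.11 to 11.35 in NN. SM16 overlapped with no other group. The change in SM16 minus TAN was -1.17 ± 0.12 (SE, adjusted p = 3.5e-06), -1.22 with TAN replicate 4 alone (adjusted p = 0.00110), and that in SM16 minus NN was -0.91 (adjusted p = 1.05e-07). Zfp451, a SUMO ligase and a corepressor of the Smad proteins that carry the TGF-beta signal, read 6.31, 6.58, 6.73, 6.76 and 6.36 in SM16, 7.76, 7.93 and 7.19 in TAN, 7.68 to 8.18 in G-MDSC and 7.57 to 8.32 in NN. No SM16 array overlapped with another group. It fell 2.11-fold in SM16 against TAN (adjusted p = 7.95e-04) and 2.44-fold against NN (adjusted p = 1.52e-06). With TAN replicate 4 alone the change from TAN was -0.64 and not called (adjusted p = 0.239).

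Zfp64, a zinc finger protein that takes part in Toll-like receptor signalling in mouse macrophages, rose 5.32-fold in TAN over NN on probe ILMN_2515349 (adjusted p = 1.39e-07). It read 7.43 to 7.89 in SM16, 8.85, 8.88 and 7.95 in TAN, 7.17, 5.95, 5.81 and 5.98 in G-MDSC, and 5.85 to 6.42 in NN. SM16 and TAN lay above every NN array, and in G-MDSC only replicate 1 did. The TAN change was 1.80 with replicate 4 alone (adjusted p = 5.19e-04), and a second probe rose 2.98-fold in SM16 over NN. On the third probe, ILMN_2929723, the changes over NN were 1.0 in SM16 and 0.69 in TAN (adjusted p = 0.00179 and 0.0449). Zfp91, an E3 ubiquitin ligase of non-canonical NF-kappaB signalling, read 7.37 to 8.47 in SM16, 4.89, 4.69 and 7.02 in TAN, 8.27 to 9.40 in G-MDSC and 7.45 to 8.89 in NN. TAN replicates 1 and 2 were far below the others and TAN replicate 4 just below them. It was at least 2.95-fold higher in SM16 than in TAN (adjusted p = 5.07e-04), with a change of 0.88 that was not called for TAN replicate 4 alone (adjusted p = 0.355), and did not pass the test between SM16 and NN (-0.18, adjusted p = 0.679). It was lower in TAN than in G-MDSC also with TAN replicate 4 alone (-1.88, adjusted p = 0.00462). Zfp335, a subunit of H3K4 methyltransferase complexes needed for T cell maturation, read 5.16, 4.78 and 8.16 in TAN, and its call of 1.47 in SM16 minus TAN turned to -0.66 with TAN replicate 4 alone. It rose 2.11-fold in G-MDSC over NN, with 1.25 within the shared set of arrays (adjusted p = 0.00105). Zfp423, a cofactor of BMP signalling, had no probe past the filter.

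Silencers of retroelements and imprinted genes were mostly out of range: 3 of 8 listed genes were measured. In SM16 minus TAN none rose and 2 fell, in TAN minus NN 2 rose, in SM16 minus NN 1 fell, and in G-MDSC minus NN 2 rose. TAN minus G-MDSC had 1 rise and 1 fall. Their median changes were -0.79, 0.80, 0.37, 0.96 and -0.56 in that order, where all probes had -0.13, 0.05, -0.04, 0.00 and 0.04. Shares of all probes higher and lower were 20.1% and 25.3%, 34.9% and 33.1%, 29.9% and 32.5%, 21.8% and 21.7%, and 32.9% and 30.1%.

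Zfp809, a KRAB protein that brings Trim28 to proviral DNA of murine leukaemia virus, read 6.75, 6.44, 6.23, 6.44 and 6.66 in SM16, 8.18, 8.12 and 8.07 in TAN, 8.19, 8.72, 9.12 and 8.80 in G-MDSC, and 7.39 to 8.33 with a median of 7.69 in NN. SM16 lay below every array of the other groups. It fell 3.07-fold against TAN (log2 -1.62 ± 0.22 SE, adjusted p = 3.87e-05), with a log2 change of -1.57 for TAN replicate 4 alone (adjusted p = 0.0128), and 2.37-fold against NN (adjusted p = 3.03e-06). G-MDSC was 1.95-fold above NN (adjusted p = 2.7e-04), but by 0.63 within the shared set of arrays (adjusted p = 0.139). Zfp819, which represses retroelements in mouse embryonic stem cells, was detected on all 4 G-MDSC arrays, 2 SM16 arrays, 2 TAN arrays and no NN array. It was at least 2.28-fold higher in G-MDSC than in NN (adjusted p = 1.37e-06), with a change of 1.96 within the shared set of arrays (adjusted p = 3.64e-04). Zfp42 (Rex1), a pluripotency marker, was dim, with 6.12 ± 0.73 in TAN and 5.32 ± 0.39 in NN (SD, n = 3 and 7). It was called at least 1.5-fold higher in TAN (limma adjusted p = 0.0154), with a change of 0.49 for TAN replicate 4 alone (adjusted p = 0.280).

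The list of general transcription and chromatin factors had 15 of 20 genes measured. In SM16 minus TAN 2 rose and 7 fell, in SM16 minus NN 2 rose and 6 fell, and in each of TAN minus NN and G-MDSC minus NN 5 rose and 5 fell. In TAN minus G-MDSC 3 rose and 5 fell. All probes gave 20.1% higher and 25.3% lower in SM16 minus TAN, 29.9% and 32.5% in SM16 minus NN, 34.9% and 33.1% in TAN minus NN, 21.8% and 21.7% in G-MDSC minus NN, and 32.9% and 30.1% in TAN minus G-MDSC. The median changes of the list were -0.59, -0.57, -0.08, -0.26 and -0.07 in that order, where all probes had -0.13, -0.04, 0.05, 0.00 and 0.04.

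Zfp516, which drives genes of brown fat, fell against NN in every group. It read 6.70, 6.23, 5.45, 5.92 and 5.89 in SM16, 5.98, 6.34 and 6.71 in TAN, 6.74, 7.87, 7.69 and 7.92 in G-MDSC, and 8.71 to 9.11 with a median of 8.87 in NN. Both tumour groups lay below G-MDSC, and G-MDSC below NN. The fall was 7.13-fold in SM16 (adjusted p = 8.75e-10), 5.77-fold in TAN (adjusted p = 6.85e-08; -2.16 with replicate 4 alone) and 2.49-fold in G-MDSC (adjusted p = 1.29e-04; -1.18 within the shared set, adjusted p = 0.0377). Zfp148, which binds GC-rich promoters, fell 2.77-fold in SM16 against NN, to 7.24 ± 0.25 in SM16, against 8.71 ± 0.37 in NN (SD, n = 5 and 7, limma adjusted p = 2.79e-06). Its fall in G-MDSC (-0.99) was -0.45 within the shared set (adjusted p = 0.170). Zfp217, part of CoREST-type corepressor complexes, rose 2.53-fold in G-MDSC over NN, and by 1.0 within the shared set (adjusted p = 0.0142). Zfp367, a factor of cell cycle genes, was detected on all 7 NN arrays by both of its probes and on no G-MDSC array by ILMN_1257178. It was at least 1.25-fold lower in G-MDSC than in NN, next to the fall of all 10 precursor and cycling markers given above. Zfp207 (BuGZ), a spindle assembly factor, read 8.05 to 9.0 in SM16, and 5.32, 5.06 and 8.78 in TAN, and its call of 2.23 in SM16 minus TAN was -0.17 with TAN replicate 4 alone.

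Set against TAN replicate 4 alone, 6 Zfp probes were called lower in SM16, where 1.97% of all probes were. They were Zfp809 (-1.57), Zfp473 (-1.40), Zfp395 (-1.37), Zfp13 (-1.31), Zfp608 (-1.22) and Zfp296 (-1.07), with adjusted p of 0.0128, 0.0206, 0.0383, 0.0355, 0.00110 and 0.0451. Of these, Zfp13 (-0.60, adjusted p = 0.0726) and that probe of Zfp296 (ILMN_2470407, -0.14) were not called with all 3 TAN arrays, while the other probe of Zfp296 was (-1.02). On probe ILMN_2811918 Zfp473, which takes part in the 3′ end processing of histone mRNAs, read 5.09, 5.09, 5.61, 5.55 and 5.52 in SM16, 6.90, 7.27 and 6.77 in TAN, 5.38 to 6.16 in G-MDSC and 4.62 to 5.31 in NN. On this probe TAN lay above all other groups. It fell 3.05-fold in SM16 against TAN (adjusted p = 3.84e-05) and was at least 2.90-fold higher in TAN than in NN (adjusted p = 6.09e-08). The other Zfp473 probe, ILMN_1218315, was dimmer, at 5.48 in SM16, 5.90 in TAN, 5.92 in G-MDSC and 5.28 in NN on average. Its change was -0.42 in SM16 minus TAN (adjusted p = 0.0880), -0.01 in TAN minus G-MDSC (adjusted p = 0.957) and 0.63 in TAN minus NN (adjusted p = 0.00584). Zfp395 read 5.83 to 6.48 in SM16, 7.21, 7.0 and 7.40 in TAN, 5.14 to 5.92 in G-MDSC and 5.03 to 5.95 in NN, again highest in TAN.

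Further falls in SM16 against TAN held in direction with TAN replicate 4 alone but missed the threshold. Zfp758 read 5.90, 6.12, 6.58, 6.35 and 6.17 in SM16, and 8.13, 8.15 and 7.33 in TAN, a 3.13-fold fall (adjusted p = 9.01e-05) with no overlap, and -1.11 with TAN replicate 4 alone (adjusted p = 0.0687). Zfp119a fell 2.98-fold, Zfp2 2.45-fold, Zfp236 2.43-fold and Zfp276 2.29-fold, with -1.23, -0.45, -0.89 and -0.58 for TAN replicate 4 alone (adjusted p = 0.124, 0.575, 0.0878 and 0.174). Zfp330, a nucleolar protein, was 4.32-fold higher in SM16 (9.33 to 10.16) than in TAN (6.39, 6.82 and 9.32), with 0.30 for TAN replicate 4 alone (adjusted p = 0.658). Of the 95 calls in SM16 minus TAN, 13 had the opposite sign with TAN replicate 4 alone. The matching share over all called probes is not given here, so this count is not particular to Zfp probes.

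**Figure D3:**
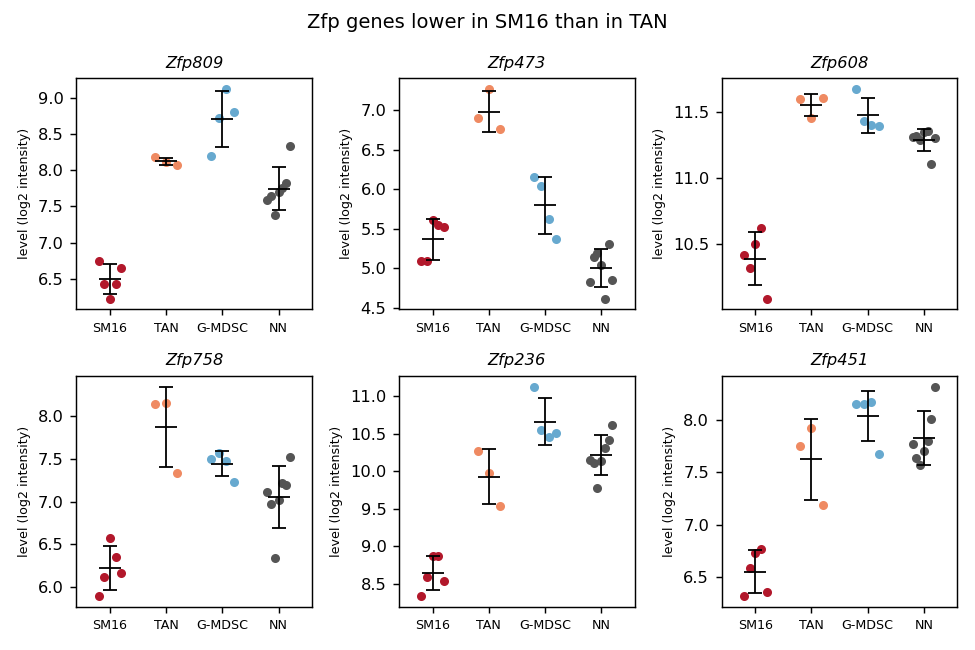
Level (log2 intensity) on every array of 6 Zfp genes called lower in SM16 than in TAN, by 1 probe each, with SM16, TAN, G-MDSC and NN side by side. Points are arrays, and black bars the group mean ± SD. The 5 SM16 arrays lie below the 3 TAN arrays in all 6 panels, and for Zfp758 and Zfp451 TAN replicate 4, the rightmost TAN point, is the lowest of its group.

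**Figure D4:**
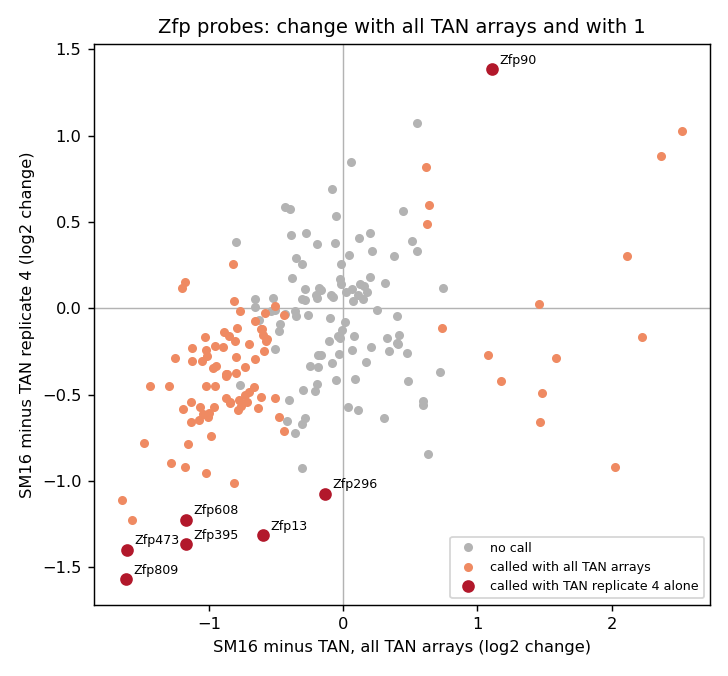
Log2 change in SM16 minus TAN of the 199 Zfp probes. The x axis uses TAN replicates 1, 2 and 4 and the y axis only replicate 4, so both share that array and the SM16 arrays. Red points are the 7 probes called with TAN replicate 4 alone, orange points those called on the x axis alone, and grey points those not called.

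Among the calls in G-MDSC minus NN, Zfp658 was detected on all 4 G-MDSC arrays and 1 NN array. It read 7.29, 7.30, 7.02 and 7.16 in G-MDSC, and 4.60 to 5.54 with a median of 5.21 in NN, at least 3.28-fold higher in G-MDSC (adjusted p = 9.25e-09) and 2.0 (log2) within the shared set of arrays (adjusted p = 0.00113). Zfp715 rose 3.17-fold to 11.01 ± 0.19, against 9.34 ± 0.42 in NN (SD, n = 4 and 7, limma adjusted p = 1.5e-06), and by 1.10 within the set (adjusted p = 0.00238). Zfp607a rose 2.41-fold. Zfp41 (probe ILMN_3137980) was detected on no G-MDSC array and every NN array and was at least 2.16-fold lower in G-MDSC, with -1.18 within the set (adjusted p = 0.00686). Zfp748 fell 2.44-fold, Zfp760 fell 2.36-fold, and Zfp704 (probe ILMN_1225146) was at least 1.61-fold lower, each with an adjusted p under the threshold within the set (0.0307, 0.0034 and 0.0128).

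In TAN minus G-MDSC the named rises were smaller with TAN replicate 4 alone, except for Zfp395. Among them, Zfp41 was at least 3.30-fold higher in TAN than in G-MDSC, Zfp609, which shares a family with Zfp608, at least 3.55-fold, Zfp395 at least 3.01-fold and Zfp449 at least 2.34-fold. With TAN replicate 4 alone these changes were 1.45, 1.37, 1.88 and 1.30 (adjusted p = 0.00143, 0.0363, 4.82e-04 and 0.0502). Zfp386 was at least 2.45-fold higher, and 0.73 with TAN replicate 4 alone (adjusted p = 0.101). Among the falls, Zfp715 fell 4.44-fold in TAN against G-MDSC, and Zfp24, detected on no TAN array, was at least 1.77-fold lower. They kept their call with TAN replicate 4 alone (-1.79 and -2.06, adjusted p = 6.21e-04 and 0.00147). Zfp524 read 4.60, 5.10 and 9.26 in TAN, and 9.64 to 10.18 in G-MDSC, at least 7.17-fold lower over the 3 TAN arrays, and -0.67 on TAN replicate 4 alone (adjusted p = 0.0439). Zfp646 was at least 2.57-fold lower, and -0.84 with TAN replicate 4 alone (adjusted p = 0.0537). Of the 118 calls, 5 had the opposite sign with TAN replicate 4 alone, and the matching share over all called probes is not given here.

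Several genes had probes that went opposite ways. Of 29 genes with 2 or more member probes, 5 had probes called in opposite directions in SM16 minus TAN (Zfp212, Zfp410, Zfp523, Zfp868 and Zfp87), 4 in TAN minus NN (Zfp277, Zfp410, Zfp523 and Zfp704) and 3 in TAN minus G-MDSC (Zfp277, Zfp36l1 and Zfp410). None did in SM16 minus NN or G-MDSC minus NN. The share among all genes with 2 or more probes is not given here, so these counts only describe the Zfp genes. Zfp410, which activates Chd4, read 5.91 on TAN replicate 4 and 6.68 and 6.66 on TAN replicates 1 and 2 by probe ILMN_1219787, but 7.29 on TAN replicate 4 and 4.48 and 4.50 on TAN replicates 1 and 2 by probe ILMN_1259006. On the SM16 arrays these probes read 5.09 to 5.87 and 6.05 to 7.31. The change in SM16 minus TAN was -0.96 on the first probe and 1.58 on the other, and with TAN replicate 4 alone -0.45 and -0.29. Zfp87 had 1.18 and -1.14 on its 2 probes with all TAN arrays, and -0.42 and -0.66 with TAN replicate 4 alone. Zfp523 had 1.08 and -0.85, and -0.27 and -0.16. Zfp868 had 0.73 and -0.60, and -0.12 on both probes. On Zfp212, 2 probes were lower (-0.89 and -1.14) and 1 higher (0.64) in SM16 than in TAN, and with TAN replicate 4 alone these were -0.23, -0.54 and 0.60. Of the 199 Zfp probes 26 (13.1%) were detected on TAN replicate 4 and on no other TAN array, where 11.8% of all probes were, and 9 on TAN replicates 1 and 2 only.

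**Figure D5:**
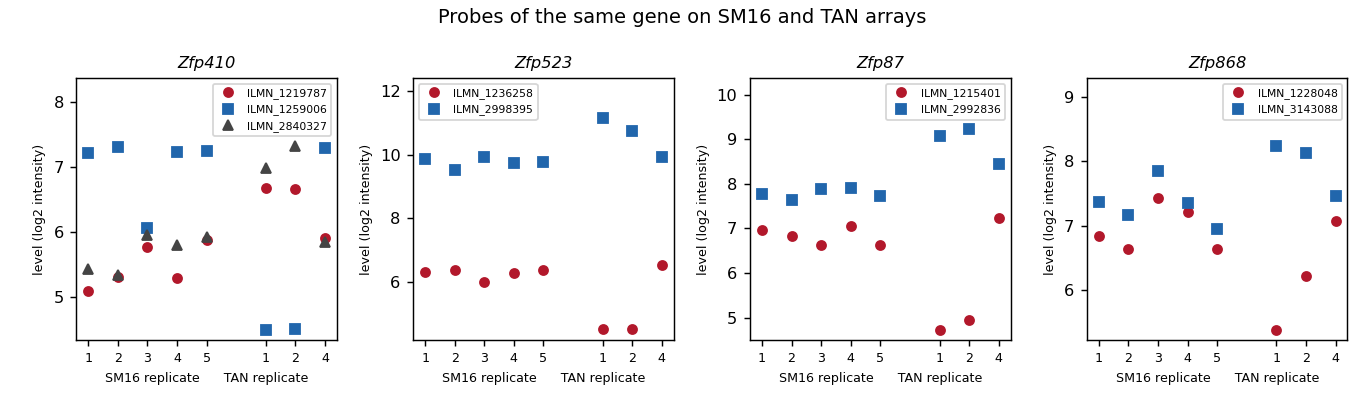
Level (log2 intensity) on each SM16 and TAN array of every member probe of Zfp410, Zfp523, Zfp87 and Zfp868, with symbols for probes. On TAN replicates 1 and 2 at least 1 probe of each gene is higher, and at least 1 lower, than on TAN replicate 4.

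Genes that work with Zfp proteins were read from 2 lists. Of 20 genes of the KRAB corepressor, 17 were measured. In TAN minus NN 5 rose and 10 fell, in SM16 minus NN 2 rose and 9 fell, in G-MDSC minus NN 1 rose and 5 fell, in SM16 minus TAN 4 rose and 4 fell, and in TAN minus G-MDSC 6 rose and 7 fell. All probes in these comparisons gave 34.9% higher and 33.1% lower, 29.9% and 32.5%, 21.8% and 21.7%, 20.1% and 25.3%, and 32.9% and 30.1%. The median changes of the list were -0.63, -0.49, 0.03, 0.17 and 0.01 in that order, where all probes had 0.05, -0.04, 0.00, -0.13 and 0.04. Trim28 averaged 10.94 in SM16, 10.90 in TAN, 10.23 in G-MDSC and 10.06 in NN, and rose by 0.88 in SM16 and 0.85 in TAN over NN (adjusted p = 8.1e-05 and 6.2e-04). The methyltransferase genes Ehmt1 and Ehmt2 moved apart: Ehmt1 fell by 0.96 in SM16 and 0.63 in TAN against NN on its brighter probe, ILMN_2683675 (adjusted p = 2.42e-05 and 0.00554), and on ILMN_2603660 it fell 3.16-fold in SM16 and was at least 3.52-fold lower in TAN than in NN, while Ehmt2 (probe ILMN_3147724) rose 3.65-fold in SM16 and by 1.60 on the log2 scale in TAN. Uhrf1 and Dnmt1, which copy DNA methylation when DNA is replicated, fell 9.90-fold and 4.24-fold in G-MDSC against NN, next to the fall of the cycling markers. Atf7ip, a partner of Setdb1, fell 2.15-fold in SM16 against TAN (-0.65 with TAN replicate 4 alone). Cbx1 changed there by -1.19, while Setdb1 and Mta1 changed by 1.30 and 1.31 (log2, limma adjusted p = 0.00537, 0.00169 and 0.0106). Setdb1 was detected on 2 of 3 TAN arrays, Mta1 on 1 of 3, and Cbx1 on 1 of 5 SM16 arrays. Setdb1 was also lower in TAN than in NN (-1.47, limma adjusted p = 9.13e-05).

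Of 20 genes of deadenylation and decapping, through which Zfp36l1 acts, 15 were measured. In TAN minus NN 4 rose and 6 fell, in SM16 minus NN 3 rose and 9 fell, in G-MDSC minus NN 2 rose and 2 fell, in SM16 minus TAN 3 rose and 3 fell, and in TAN minus G-MDSC 3 rose and 7 fell. Their median changes were -0.11, -0.66, 0.0013, -0.28 and -0.02 in that order, set against the same shares and medians of all probes as the corepressor list. Cnot2, a scaffold subunit of CCR4-NOT, fell 2.19-fold in SM16 against NN, to 8.69 ± 0.09 in SM16, against 9.81 ± 0.12 in NN (SD, n = 5 and 7, limma adjusted p = 8.25e-08). Tob1, an adaptor of the deadenylase, fell 3.51-fold in SM16 against NN. On its dimmest probe Btg1, a related adaptor, averaged 11.77 in SM16, 10.23 in TAN, 14.08 in G-MDSC and 11.96 in NN, and fell 14.5-fold in TAN against G-MDSC (adjusted p = 1.28e-05), while its 2 brighter probes fell by 1.69 and 0.49 on the log2 scale. Cnot3 (probe ILMN_2987161) was called at least 5.33-fold higher in SM16 than in TAN, with -0.07 for TAN replicate 4 alone, and its other probe was at -0.13 and not called.

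Member genes lay close together. All 162 were placed on GRCm38.p6, with 40 on chromosome 7, 17 on chromosome 17 and 11 on each of chromosomes 11 and 13. Another member gene lay within 200 kb of 68 of them, in 23 groups, the largest of 7 genes on chromosome 7 between Zfp30 and Zfp382. In SM16 minus NN, Zfp30 (1.5) and Zfp27 (0.90 on probe ILMN_3117788, 0.35 and not called on the other) rose in that group. Zfp790 (-1.34), Zfp420 (-1.67) and Zfp382 (-0.58) fell, and Zfp82 and Zfp566 were not called. Zfp382 was detected on 3 NN arrays and nowhere else, so it passed the filter only through the group where it was higher. On chromosome 13 a group of 5 held Zfp457, Zfp595, Zfp58, Zfp87 and Zfp748. All 5 fell in SM16 against NN, by 0.94 to 2.25 on the log2 scale. In this comparison 38.2% of Zfp probes and 32.5% of all probes were lower, and the group was named after its values were seen. In a group of 6 on chromosome 6, Zfp212 fell (-1.21) and Zfp956 rose (0.65), while Zfp786, Zfp398, Zfp282 and Zfp777 were not called. Zfp672 and Zfp692 overlap at their ends on chromosome 11, and both fell in SM16 against NN. Members near each other can share sequence, so a probe may read a relative, and this was not tested.

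Other zinc finger families were set beside the Zfp probes as a description. In SM16 minus TAN 39.7% of Zfp probes were lower, with 44.4% of 27 Zbtb probes, 36.4% of 11 Zscan or Zkscan probes and 33.3% of 21 Zc3h probes. The shares higher were 8.04% of Zfp probes, 7.41% of Zbtb probes, 9.09% of Zscan or Zkscan probes and 28.6% of Zc3h probes. Of all probes, 25.3% were lower and 20.1% higher.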

How the data were processed

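RNA of 19 neutrophil samples was amplified, biotin labelled and hybridised to Illumina BeadChips, per the labels' protocols. The authors deposited bead intensities without normalization for 25697 probes and normalized intensities for 17004, with a detection p-value for each probe and array, exported from GenomeStudio per the submitters' processing notes. Their normalization is not given in the sources used here. Log2 levels were computed here from the deposited intensities with neqc of limma 3.58.1 (R 4.3.3; background from detection p-values, offset 16, quantile normalization). Probes detected at 0.01 on 3 arrays were kept, and 1 fit over 4 groups (lmFit, eBayes with a variance trend, 15 residual degrees of freedom) gave 5 comparisons with Benjamini-Hochberg adjustment at 0.05. The script was tested on simulated data. The number of arrays limits the precision.

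A gene detected on at most one in 2 arrays of the dimmer group has an "at least" fold, against the higher of its own value and the lowest detected value on each array. Genes were named by a rule: the 8 largest rises and falls per comparison with no overlap, called genes of the role and partner lists, 5 genes of signalling and mRNA decay, and genes whose probes were called in opposite directions. Zfp13, the other members called with TAN replicate 4 alone, and the neighbours on chromosomes 6, 7 and 13 were named after their values were seen. The members and lists were chosen with earlier results of these data known. Protein features were not analysed here. Some protocol labels describe fixed tissue biopsies and were not used.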

Additional observations from a re-analysis of the deposited data

Results flagged for a closer look

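Of 225 groups of levels (log2 intensity) of 75 named Zfp probes, 19 held 1 array far from the others, where chance flags about 1 in 20 groups. Of these, 7 fell on G-MDSC replicate 1, which also had the highest B cell and T cell marker sums. It was high for Zfp36l1 (13.17 on ILMN_1247853, others 12.41 to 12.44), Zfp236 (11.13 on ILMN_1259712, others 10.46 to 10.55), Zfp608 (11.68, others 11.40 to 11.43) and Zfp64 (7.17 on ILMN_2515349, others 5.81 to 5.98). It was low for Zfp87 (8.01 on ILMN_1215401, others 8.79 to 8.86), Zfp748 (6.06, others 6.87 to 6.97) and Zfp449 (4.64, others 5.09 to 5.14). Every Zfp449 value in G-MDSC lay below the lowest detected level of its array (5.38 to 5.42).

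SM16 replicate 3 was low for Zfp410 (6.05 on ILMN_1259006, others 7.21 to 7.31), Zfp523 (5.998 on ILMN_1236258, others 6.27 to 6.37), Zfp212 (4.85 on ILMN_2521753, others 5.40 to 5.62) and Zfp277 (4.80 on ILMN_1234694, others 5.35 to 5.55). SM16 replicate 1 was low for Zfp658 (5.15, others 5.56 to 5.69) and Zfp41 (5.68 on ILMN_3137980, others 6.20 to 6.40), and SM16 replicate 2 was high for Zfp296 (5.09 on ILMN_2470407, others 4.57 to 4.68). The Zfp212 and Zfp277 values of SM16 replicate 3 lay below the lowest detected level of that array, 5.54. So did the Zfp658 value of SM16 replicate 1 (lowest detected 5.35), and no SM16 array detected Zfp296 on this probe.

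G-MDSC replicate 4 was low for Zfp451 (7.68, others 8.15 to 8.18) and high for Zfp760 (5.90, others 5.41 to 5.49), and G-MDSC replicate 2 was high for Zfp692 (7.91 on ILMN_3141195, others 7.29 to 7.38). NN replicate 6 was low for Zfp608 (11.11, others 11.29 to 11.35) and NN replicate 7 for Zfp41 (5.99 on ILMN_3137980, others 6.45 to 6.78).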

How the results depend on the processing

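Over 183 named results, the alternatives other than leaving out 1 array (those within 1 set of arrays and with TAN replicate 4 alone included) left direction and side of the threshold unchanged in 2050 cases, lost the call in 131, gained one in 10 and turned the sign in 23. The number of Zfp calls in SM16 minus TAN was 49 with only those groups fitted, 7 with TAN replicate 4 alone, and 53 to 125 with 1 array left out (53 without TAN replicate 1, 58 without TAN replicate 2). In TAN minus NN it was 85 with TAN replicate 4 alone, and in G-MDSC minus NN 133 with array weights, 42 with the array set as a block and 47 within 1 set. In TAN minus G-MDSC it was 60 with the set as a block. The replicate block gave 86 calls in SM16 minus TAN, 115 in TAN minus NN, 107 in SM16 minus NN, 87 in G-MDSC minus NN and 114 in TAN minus G-MDSC. Same-numbered arrays deviated together with correlations of -0.33 to 0.26, so the numbers were not taken as pairs.

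With TAN replicate 4 alone, SM16 minus TAN turned sign for Zfp598 (-0.49), Zfp346 (0.15), Zfp335 (-0.66), Zfp207 (-0.17), Zfp410 (-0.29), Zfp523 (-0.27), Zfp36l1 on ILMN_2427108 (-0.37), Zfp868 (-0.12), Zfp87 (-0.42), Cnot3 (-0.067) and Tob1 (-0.39), and TAN minus NN for Zfp385a (0.20), Zfp335 (0.23), Zfp277 (0.0013) and Zfp523 (0.37). Zfp598 also turned in TAN minus NN, from -1.22 to 0.75. Changes not called also turned: Zfp451 in TAN minus NN ranged over -0.36 to 0.0080 with 1 array left out, and was -0.13 in G-MDSC minus NN with the array set as a block or within 1 set and 0.053 in TAN minus G-MDSC with the block. Zfp91 in SM16 minus NN was 0.028 with array weights and 0.10 with the set as a block, within 1 set or with the replicate block, and Zfp36l1 on ILMN_2427108 was -0.061 in TAN minus NN with array weights. The cause was not tested. A fit with the slide as a block was not run, since slides are not given in the sources used here. Dim probes near background limit all changes of members under the lower quartile of levels. In comparisons with TAN this limit reaches higher. The lowest detected level was 5.98 and 6.02 on TAN replicates 1 and 2 and 5.57 on TAN replicate 4. It was 5.15 to 5.61 on the arrays of the other groups.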
